A study of Mus musculus with 6 samples.

Results

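Translation initiation factor genes were examined in primary murine hepatocytes overexpressing Aloxe3, an epidermal-type lipoxygenase that converts fatty acid hydroperoxides. The members were the protein-coding genes whose symbol starts with Eif1 to Eif6, without the eIF2 alpha kinases, and numbered 51 of the 41388 genes listed. They comprise 5 genes of the eIF1 family and start codon selection, 4 of eIF2, 5 of eIF2B, 14 of eIF3, 11 of the cap-binding, scaffold and helicase group of eIF4, 4 eIF4E binding proteins and transporters, 4 subunit joining and late factors, and 4 alternative or exon junction factors. Hepatocytes from C57BL/6J mice were isolated with collagenase, left overnight in growth medium and given adenovirus encoding either beta galactosidase (β-gal) or ALOXE3 for 24 hours. Each group had 3 libraries, named here by their labels as β-gal replicates 1, 2 and 3 and Aloxe3 replicates 7, 8 and 9, and both groups carried virus, so no uninfected cells enter the comparison. The promoter that drives the transgenes was not given in the sources used here, nor whether the libraries of a group came from separate animals or cultures. The comparison asks which genes differ when Aloxe3 is overexpressed.

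Initiation factors bring the small ribosomal subunit, the initiator tRNA and the capped end of an mRNA together and release the complete ribosome at a start codon. eIF2 bound to GTP carries the initiator tRNA, eIF2B reloads eIF2 with GTP, eIF3 coats the small subunit, and eIF4E, eIF4G and eIF4A bind the cap and unwind the leader. In liver, the supply of amino acids and insulin acts on these steps through eIF2 alpha kinases, which block eIF2B, and through mTORC1, which phosphorylates the eIF4E binding proteins and so frees eIF4E.

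Poly(A)-selected RNA was sequenced, and expression was deposited as RPKM, the reads of a gene scaled to its length and to the library size. The library sizes recovered from the steps of these values were 25521908 to 32431318 reads. Aloxe3 itself (chromosome 11, 69125896 to 69149115) measured 2.04, 2.06 and 1.74 RPKM in the β-gal libraries and 42.3, 45.8 and 56.3 RPKM in the Aloxe3 libraries. Its log2 fold change was 4.05 (SE 0.10, adjusted p = 4.74e-06, limma), and every library matched its label. Reads were counted on the mouse gene, and whether the transgene is the mouse sequence is not stated in the labels, so the level and the fold cover only reads that align there. All 7 hepatocyte markers averaged at least 0.5 RPKM and summed to 4947 to 4995 RPKM in β-gal and 4775 to 4921 RPKM in Aloxe3 libraries, most of it albumin, while Cps1 (0.915 to 1.64 RPKM) and Cyp2e1 (2.03 to 2.86 RPKM) were low. Of the 7, 1 passed the test, Ttr, at 119, 131 and 122 RPKM in β-gal and 99.4, 101 and 101 RPKM in Aloxe3 libraries, and Cps1 was higher in every Aloxe3 library (1.29 to 1.64 RPKM) than in any β-gal library (0.915 to 1.05 RPKM). Markers of other liver cells were also read. The 5 Kupffer cell markers summed to 149 to 152 RPKM in β-gal and 131 to 144 RPKM in Aloxe3 libraries. They were carried mostly by Cd68, with the defining Clec4f and Vsig4 near 0. The 4 cholangiocyte markers summed to 78.2 to 93.5 and 74.7 to 93.0 RPKM. They were carried by Krt19 and Sox9, with Krt7 and Epcam under 0.5 RPKM in every library. The 5 endothelial markers summed to 10.4 to 12.3 and 10.3 to 11.9 RPKM. The 5 stellate markers summed to 3.37 to 3.88 and 3.51 to 3.81 RPKM, with Lrat at 0. The part of these other cells in the results was not tested, and in bulk RNA fewer cells of a type and less RNA per cell cannot be told apart.

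No initiation factor gene passed the test between the groups. Of the 51 genes, 48 averaged at least 0.5 RPKM and were tested with limma on log2(RPKM + 1), a scale that understates the change of low genes, and 0 had an adjusted p under 0.05, against 0.394% of all 12693 genes tested (0.355% higher and 0.0394% lower). The same count was 0 with voom on derived reads, against 173 of all 12692 genes in that fit. At an unadjusted p under 0.05 there were 7 genes with lower values in hepatocytes overexpressing Aloxe3 (14.6%, against 5.42% of all genes tested) and 2 with higher values (4.17%, against 7.31%). With quantile normalization the split was 3 lower and 3 higher. The 7 were Eif5a, Eif2b5, Eif5, Eif1, Eif6, Eif3i and Eif2b2, and the 2 were Eif4enif1 and Eif5b. Their number, 9 (18.8%, against 12.7%), depended on single libraries. It was 0 when β-gal replicate 1 was left out (against 9.3% of all genes in that fit), 2 when β-gal replicate 2 was (4.17%, against 8.15%), 12 when β-gal replicate 3 was (25%, against 10.1%), 5 when Aloxe3 replicate 8 was (10.4%, against 11.6%) and 3 when Aloxe3 replicate 9 was (6.25%, against 12.2%). It was also 3 (6.25%, against 12.3%) when the prior variance did not follow the mean, while it was 9 without Aloxe3 replicate 7 (18.75%, against 14.4%). The share lay above that of all genes with voom (22.9%, against 14.5%), a filter at 5 RPKM (20.5%, against 13.6%), no filter (16%, against 8.76%), a pseudocount of 0.1 (18.75%, against 12.6%), median rescaling (16.7%, against 14.2%), quantile normalization (12.5%, against 11.7%) and the corrections for length (16.7%, against 12.6%) and GC content (12.5%, against 12.0%). The smallest adjusted p over the 48 genes was 0.291.

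The estimates were small. Every 95% confidence interval lay between log2 fold changes of -0.29 and 0.33 on the log2(RPKM + 1) scale, where a change of RPKM itself is larger, most of all in low genes such as Eif4ebp3. The log2 fold change was below 0 in 36 of the 48 genes (75%, against 47.6% of all genes tested), with a median of -0.035 beside 0.0049 over all genes tested. Without Aloxe3 replicate 9 the number below 0 was 30 (62.5%, against 43.4%) and the median -0.021, beside 0.012 over all genes. With quantile normalization the number was 33 (68.75%, against 53.1%) and the median -0.019, beside -0.0058. With a filter at 5 RPKM it was 34 of 44 (77.3%, against 54.9%) and the median -0.037, beside -0.0097. With median rescaling it was 37 (77.1%, against 53.4%) and the median -0.050, beside -0.0065. The 3 libraries of each group did not overlap in 9 genes with lower values (18.8%, against 8.71%), which were Eif5, Eif2b5, Eif2b2, Eif3i, Eif3l, Eif3f, Eif3g, Eif3b and Eif5a, and in 2 with higher values (4.17%, against 11.2%), which were Eif2s1 and Eif4enif1. In either direction 11 members did not overlap (22.9%, against 19.9%).

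**Figure D1:**
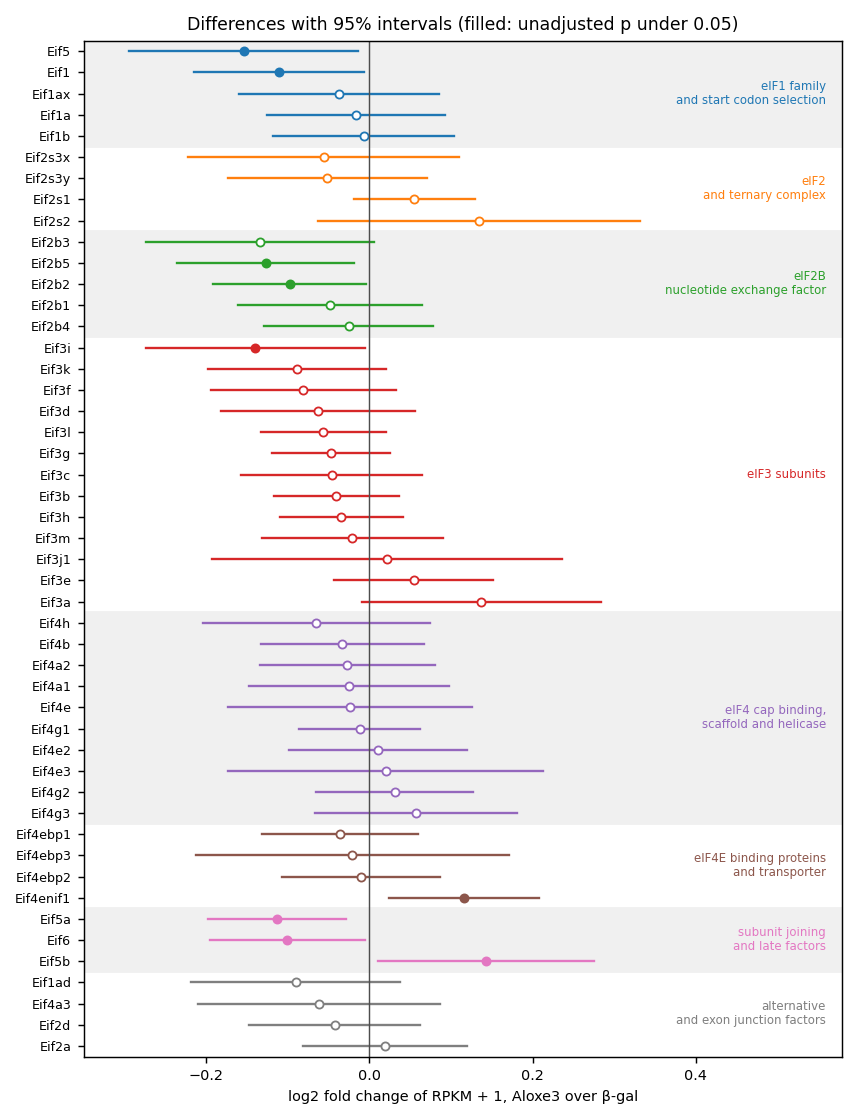
log2 fold change of RPKM + 1 (Aloxe3 minus β-gal, 3 libraries each) for the 48 initiation factor genes tested, with 95% confidence intervals from limma; filled points mark an unadjusted p under 0.05. The estimates run from -0.15 for Eif5 to 0.14 for Eif5b, and 36 lie left of 0.

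The libraries of a group did not share one position. Measured against the β-gal mean of each gene, the median deviation of the 48 genes on the log2 scale was 0.0073, 0.012 and -0.023 in β-gal replicates 1, 2 and 3 and -0.040, -0.0032 and -0.086 in Aloxe3 replicates 7, 8 and 9. Aloxe3 replicate 8 thus lay inside the β-gal range, and Aloxe3 replicate 9 lay lowest and held the lowest value of 24 of the 48 genes. Aloxe3 replicate 9 also held the highest value of 10 of them. The SD of its deviations over the genes was 0.124, against 0.062 and 0.085 in Aloxe3 replicates 7 and 8. Over all genes tested the median deviation of Aloxe3 replicate 9 was -0.012, also the lowest of the 6 libraries. It held the lowest value of 3826 of 12693 genes and the highest of 2525. The part of that library in the results is given by the values without it.

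**Figure D2:**
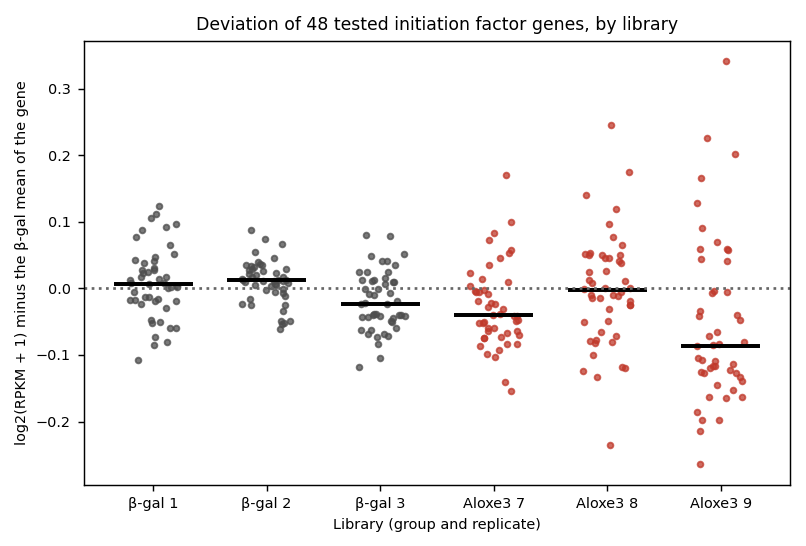
Deviation of log2(RPKM + 1) from the β-gal mean for the 48 initiation factor genes tested, by library, 1 point per gene and a bar at the median of each library. The β-gal points lie closer to 0 in part because their own mean is the reference; the median of Aloxe3 replicate 9 is lowest at -0.086 and that of Aloxe3 replicate 8 is -0.0032.

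Levels per gene length spanned more than the groups differed. At or above 100 RPKM were 17 genes, 23 lay between 10 and 100 RPKM, 8 between 0.5 and 10 RPKM and 3 under 0.5 RPKM, and at GENCODE M21 lengths these counts would be 11, 27, 10 and 3. The tested members had a median of 36.8 RPKM, against 6.85 RPKM over all genes tested, and rested on 10 to 49239 reads per library with a median of 3508.5. Eif4ebp1, which encodes the eIF4E binding protein 4E-BP1, was highest with a mean of 636 RPKM over the 6 libraries and ranked 54 among all genes. It was followed by Eif5a (350 RPKM) and the eIF3 subunit gene Eif3k (257 RPKM). The order near the top rests on the gene length used, since the length behind the deposited value of Eif4ebp1 was 981 bases and that of GENCODE M21 is 2196 bases, which would give 284 RPKM and place Eif5a above it. For Eif3k the GENCODE M21 length would give 73.6 RPKM. The length of 24 members was that of GENCODE M21, and for 26, these 2 included, it was inferred as the smallest length that made the reads of all libraries whole, so that a multiple of it cannot be told apart. A length divides all 6 libraries alike, so that in the main fit it bears on the difference of a gene only through the pseudocount and the filter. The comparison of estimates by length and the correction for length rest on it directly.

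**Figure D3:**
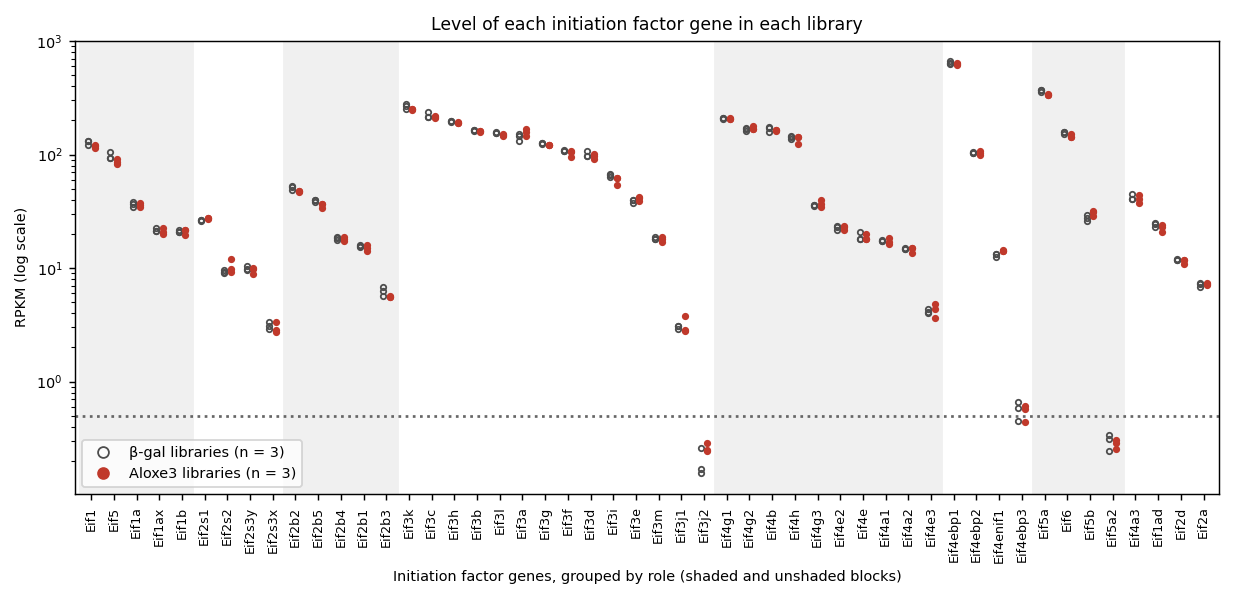
RPKM on a log axis of each initiation factor gene in the 3 β-gal (open) and 3 Aloxe3 (filled) libraries, grouped by role; the dotted line marks the 0.5 RPKM needed for testing. Genes range from under 0.5 RPKM (Eif3j2, Eif5a2) to 636 RPKM (Eif4ebp1), the libraries of a gene lie close together beside that range, and Eif4e1b, listed at 0, is not drawn.

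All 5 genes of the eIF1 family and start codon selection had log2 fold changes below 0, from -0.15 to -0.0070. Eif5 encodes the GTPase-activating protein of eIF2 and measured 104, 93.1 and 92.6 RPKM in β-gal and 91.7, 81.9 and 86.7 RPKM in Aloxe3 libraries. Its groups did not overlap, although β-gal replicate 1 stood above the other two of its group. The log2 fold change of Eif5 was -0.15 (adjusted p = 0.354, limma, SE 0.060), the lowest of the 48 genes, and was -0.098 without β-gal replicate 1. Eif1, whose product guards start codon fidelity, measured 131, 131 and 122 RPKM against 119, 122 and 114 RPKM, and its groups overlapped at β-gal replicate 3 and Aloxe3 replicate 8. Its log2 fold change was -0.11 (adjusted p = 0.367, SE 0.045) and -0.071 with quantile normalization. Eif1a and Eif1ax encode near-identical eIF1A proteins that keep the scanning complex open. Eif1a measured 36.6, 38.2 and 34.6 against 36.3, 37.2 and 34.7 RPKM, and Eif1ax on chromosome X measured 22.7, 21.2 and 21.03 against 21.005, 22.4 and 19.8 RPKM. The groups of both genes overlapped, in Eif1ax through Aloxe3 replicate 8 alone. The ratio of Eif1a to Eif1ax was 1.69 ± 0.0987 (SD, n = 3) in β-gal and 1.71 ± 0.0476 in Aloxe3 libraries (two-sided exact permutation p = 0.8). The log2 fold change of Eif1a was -0.017 and turned to 0.016 when β-gal replicate 2 was left out and to 0.010 when Aloxe3 replicate 9 was.

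The genes of eIF2, which carries the initiator tRNA, were split, with 2 of 4 below 0 and a median of 0.0018, which was -0.012 with median rescaling, -0.023 with the GC correction and -0.012 without Aloxe3 replicate 8. Eif2s1, which encodes the alpha subunit that the stress kinases phosphorylate, measured 26.6, 25.9 and 26.6 RPKM in β-gal and 27.4, 27.3 and 27.5 RPKM in Aloxe3 libraries. Every Aloxe3 library lay above every β-gal library, by a small margin, with a log2 fold change of 0.055 (adjusted p = 0.517, SE 0.032) that was 0.026 with the GC correction. Eif2s2, for the beta subunit, measured 9.08, 9.21 and 9.59 against 9.26, 9.77 and 12.0 RPKM. Aloxe3 replicate 9 alone stood apart, and the log2 fold change of 0.13 (adjusted p = 0.545, SE 0.085) was 0.031 without it.

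The gamma subunit of eIF2, which binds the GTP and the tRNA, has an X-linked and a Y-linked gene, and both were read in all 6 libraries. Eif2s3y measured 9.89, 10.4 and 9.67 RPKM in β-gal and 9.84, 10.1 and 8.93 RPKM in Aloxe3 libraries, while Eif2s3x measured 2.91, 3.33 and 3.11 against 2.73, 3.34 and 2.83 RPKM. The Y-linked gene was the higher of the pair in every library. Its ratio to Eif2s3x was 3.21 ± 0.164 (SD, n = 3) in β-gal and 3.26 ± 0.305 in Aloxe3 libraries (two-sided exact permutation p = 0.8). Reads of the 2 genes could be told apart, since their coding sequences of 1416 bases aligned without gaps and differed at 194 bases (86.3% identity). Each of the 828 windows of 50 bases, the read length, within an exon held 3 to 12 differences with a median of 6. The following windows in exon 2 of each gene show how closely the copies match, with capitals at the bases that differ, taken from GRCm38 at chrX:94211720-94211769 (minus strand) and chrY:1011273-1011322 (plus strand).
Eif2s3x: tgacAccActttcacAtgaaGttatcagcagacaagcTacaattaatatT
Eif2s3y: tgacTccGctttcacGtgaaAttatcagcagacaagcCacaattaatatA
A separate limit applies to Eif2s3x, of whose transcript windows 34.6% are also found in 2 pseudogenes, against 0% for Eif2s3y, and reads that align to both places would not have been counted for either.

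The 5 genes of eIF2B, the exchange factor that reloads eIF2 with GTP, all had log2 fold changes below 0, from -0.13 to -0.025 with a median of -0.098. That median ranged from -0.13 to -0.075 as each library was left out in turn. Eif2b5 encodes the catalytic epsilon subunit and measured 39.7, 39.6 and 37.8 RPKM in β-gal and 36.8, 36.8 and 33.5 RPKM in Aloxe3 libraries. All Aloxe3 libraries of Eif2b5 lay below all β-gal libraries, with a log2 fold change of -0.13 (adjusted p = 0.333, SE 0.047) that was -0.083 without Aloxe3 replicate 9. Eif2b2, for the regulatory beta subunit, measured 51.5, 52.3 and 48.3 against 47.7, 47.9 and 46.3 RPKM. Its groups did not overlap either, but β-gal replicate 3 lay close to Aloxe3 replicates 7 and 8, and the log2 fold change was -0.098 (adjusted p = 0.376, SE 0.040).

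Of the 13 tested eIF3 subunit genes, 10 had log2 fold changes below 0 and the median was -0.046, which was -0.016 with quantile normalization and -0.029 without Aloxe3 replicate 9. Eif3i, for a subunit of the dissociable module with Eif3b and Eif3g, measured 67.8, 65.7 and 63.3 RPKM in β-gal and 61.8, 62.3 and 54.4 RPKM in Aloxe3 libraries. The groups did not overlap and Aloxe3 replicate 9 was lowest, with a log2 fold change of -0.14 (adjusted p = 0.374, SE 0.058) that was -0.078 without that library. Eif3a, for the largest subunit and scaffold of the complex, measured 132, 145 and 150 against 147, 157 and 166 RPKM. Its log2 fold change was 0.14 (adjusted p = 0.420, SE 0.063), in the other direction from most of the subunits and 0.083 without β-gal replicate 1, and the groups overlapped at β-gal replicate 3. Eif3k, the most abundant subunit gene as deposited but below Eif3c, Eif3h, Eif3b, Eif3f, Eif3a and Eif3l at GENCODE M21 lengths, measured 279, 266 and 250 against 252, 251 and 244 RPKM, with a log2 fold change of -0.089 (adjusted p = 0.481, SE 0.047) that was -0.050 without β-gal replicate 1 and -0.042 with quantile normalization. The untested Eif3j2 held 12, 20 and 12 reads in β-gal and 15, 18 and 18 reads in Aloxe3 libraries (0.156 to 0.286 RPKM). Of its 50-base transcript windows 91.9% are shared with other genes, chiefly its near copy Eif3j1 (50.9% shared), so the levels of both are uncertain.

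The cap-binding, scaffold and helicase genes of eIF4 had a median log2 fold change of -0.018. Of the 10 tested genes, 6 were below 0 (60%, against 47.6% of all genes tested). None had an unadjusted p under 0.05 (against 12.7% of all genes tested). The median ran from -0.018 to 0.0015 as each library was left out. Eif4g1, the scaffold that bridges the cap-binding protein and eIF3, was the most abundant at 206, 210 and 210 RPKM in β-gal and 206, 207 and 208 RPKM in Aloxe3 libraries, a log2 fold change of -0.012 (adjusted p = 0.907, SE 0.032). Its groups overlapped within a span of a few RPKM. The log2 fold change of Eif4g1 ran from -0.021 to -0.0071 as each library was left out. It was 0.031 with quantile normalization and 0.0031 with the GC correction. Eif4h, a helper of the helicase, measured 137, 145 and 143 against 142, 141 and 123 RPKM, and only Aloxe3 replicate 9 lay apart (log2 fold change -0.065, adjusted p = 0.687, SE 0.060, and 0.0014 without that library). Eif4g3, a second scaffold gene, measured 35.7, 35.1 and 35.8 against 34.5, 36.7 and 40.0 RPKM (log2 fold change 0.057, adjusted p = 0.691, SE 0.053). Here too Aloxe3 replicate 9 was the extreme library, and without it the value was 0.0024.

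The ratio of the helicase paralogs differed between the groups by less than the spread between libraries. Eif4a1 measured 17.4, 17.9 and 17.2 RPKM in β-gal and 18.6, 16.9 and 16.1 RPKM in Aloxe3 libraries, and Eif4a2 measured 14.9, 14.7 and 14.7 against 14.996, 14.9 and 13.5 RPKM. The ratio of Eif4a1 to Eif4a2 was 1.19 ± 0.0261 (SD, n = 3) and 1.19 ± 0.0530 (two-sided exact permutation p = 1). Of the transcript windows of Eif4a1 28.4% are shared with other genes, among them 8 pseudogenes, so its level counts from the remaining bases. Of the cap-binding genes, Eif4e averaged 18.9, Eif4e2 22.7 and Eif4e3 4.23 RPKM over the 6 libraries, and Eif4e1b was listed at 0 in all of them. The order of Eif4e and Eif4e2 holds at either length, but its size does not, since the length behind Eif4e was inferred as 2882 bases and that of GENCODE M21, 6008 bases, would give it 9.05 RPKM.

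The eIF4E binding proteins, which compete with eIF4G for eIF4E, were led by Eif4ebp1. It measured 645, 662 and 626 RPKM in β-gal and 612, 644 and 629 RPKM in Aloxe3 libraries, with overlapping groups and a log2 fold change of -0.036 (adjusted p = 0.753, SE 0.041). That change ran from -0.057 to -0.017 as each library was left out and was 0.0031 with quantile normalization. Eif4ebp2 measured 103, 106 and 103 against 99.0, 103 and 108 RPKM. Per transcript length as deposited, Eif4ebp1 stood at 34.0 ± 2.75 (SD, n = 3) times Eif4e in β-gal and 33.7 ± 2.205 times in Aloxe3 libraries (two-sided exact permutation p = 0.8). Eif4ebp3 held only 14, 16 and 10 reads against 11, 10 and 12 reads, and 65.5% of its windows are shared with an overlapping gene. Eif4enif1, which encodes the shuttling protein that carries eIF4E into the nucleus, measured 12.5, 13.4 and 13.3 against 14.0, 14.2 and 14.3 RPKM. Its groups did not overlap, and the log2 fold change was 0.12 (adjusted p = 0.313, SE 0.040).

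Among the subunit joining and late factors, all 3 tested genes had an unadjusted p under 0.05, a threshold that 12.7% of all genes passed and no member passed without β-gal replicate 1, and none had an adjusted p under 0.05. Eif5a, the hypusine-bearing factor that relieves stalled ribosomes, measured 371, 367 and 354 RPKM in β-gal and 341, 335 and 333 RPKM in Aloxe3 libraries. Every Aloxe3 library lay below every β-gal library, and the log2 fold change of -0.11 (adjusted p = 0.291, SE 0.036) had the smallest adjusted p of the 48 genes, while with quantile normalization it was -0.067 (adjusted p = 0.552). Its paralog Eif5a2 held 50, 55 and 36 reads against 39, 39 and 38 reads and was not tested, with a ratio of Eif5a to Eif5a2 of 1242 ± 189 (SD, n = 3) and 1192 ± 98.7. Eif6, which keeps the large subunit from joining too early, was named after its values were seen and measured 158, 159 and 151 against 152, 143 and 142 RPKM (log2 fold change -0.10, adjusted p = 0.371, SE 0.041, and -0.063 with quantile normalization). Its groups overlapped at β-gal replicate 3 and Aloxe3 replicate 7. Eif5b, the GTPase that joins the subunits, measured 25.9, 27.7 and 29.2 against 28.6, 31.2 and 31.8 RPKM and had the highest log2 fold change of the 48 genes, 0.14 (adjusted p = 0.358, SE 0.057), also with overlapping groups.

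Of the 4 alternative and exon junction factors, 3 had log2 fold changes below 0. Eif1ad, an eIF1A domain protein, measured 24.7, 24.4 and 23.0 RPKM in β-gal and 23.0, 23.7 and 20.8 RPKM in Aloxe3 libraries (log2 fold change -0.091, adjusted p = 0.534, SE 0.055). Eif4a3, the helicase of the exon junction complex, measured 45.2, 40.8 and 40.8 against 40.3, 43.6 and 37.6 RPKM (log2 fold change -0.062, adjusted p = 0.724, SE 0.064). In both, Aloxe3 replicate 9 was the lowest library and the groups overlapped, and leaving it out gave -0.037 for Eif1ad and -0.011 for Eif4a3. Eif2a and Eif2d, which can deliver the initiator tRNA without eIF2, had log2 fold changes of 0.019 and -0.043.

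The sign of the estimate differed with gene length among the initiation factor genes. Of 25 genes whose RPKM rested on under 3000 bases, 23 had log2 fold changes below 0 (92%, against 52.1% of all genes tested in that range), and 10 of 13 genes of 3000 to 6000 bases did (76.9%, against 47.8%). Of the 10 longer genes 3 did (30%, against 37.5%), and Eif3a, Eif5b, Eif2s2 and Eif4enif1, the genes with the highest estimates, rested on 5176, 7797, 6755 and 6370 bases. For 26 of the 51 members the length was inferred as the smallest that gave whole reads. At GENCODE M21 lengths Eif5 (6820 bases), Eif4e (6008), Eif3a (8731) and Eif3e (6719) would join the longer genes. The estimates of Eif5 and Eif4e were below 0 and those of Eif3a and Eif3e above. Others such as Eif3d (4968 bases) and Eif4h (5551) would leave the range under 3000 bases. The rho and the correction for length use the same inferred lengths. Across genes, which are not independent and share the same 6 libraries, Spearman's rho of the log2 fold change was 0.344 with length and -0.369 with GC content over the 48 genes, and 0.092 and -0.17 over 12618 genes tested. The same rho with length, taken for the deviation of each library from the β-gal mean, was -0.19, -0.20 and 0.322 in β-gal replicates 1, 2 and 3 and 0.215, 0.394 and 0.257 in Aloxe3 replicates 7, 8 and 9. The β-gal deviations of a gene sum to 0, so the 3 β-gal values are not independent of each other. When a smooth curve of length was removed from each library, 34 of the 48 genes were below 0 with a median of -0.029, and the rho with length was 0.257. With GC content removed 36 were below 0 with a median of -0.039, of which 34 were also below 0 without the correction.

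**Figure D4:**
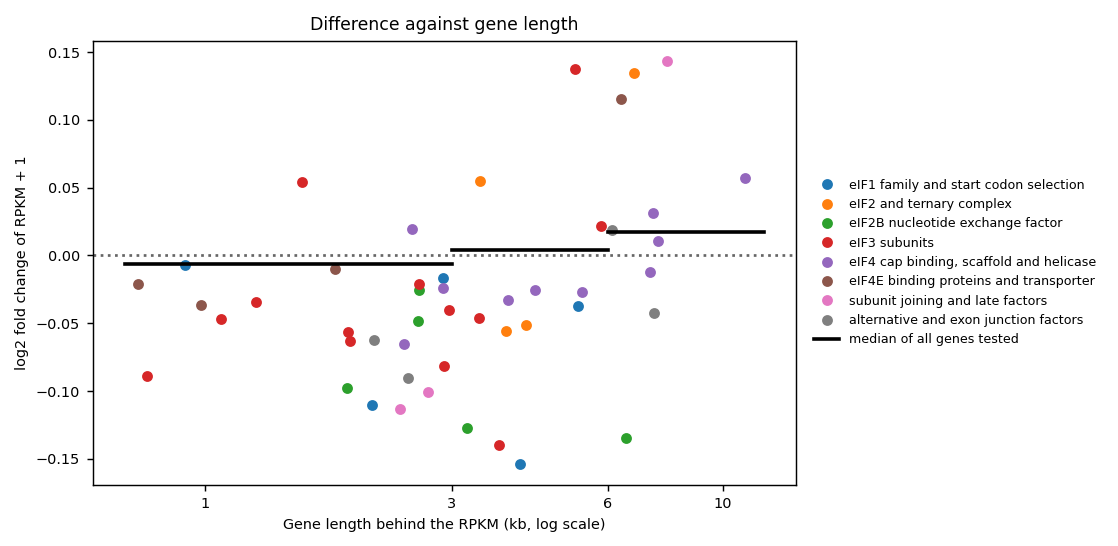
log2 fold change (Aloxe3 minus β-gal) of the 48 initiation factor genes tested against the gene length behind the RPKM (log axis, kb), coloured by role, with black bars at the median of all genes tested in each length range. Below 3 kb 23 of 25 genes lie under 0, and from 6 kb 3 of 10 do. For 26 of the 51 members the length was inferred as the smallest that gave whole reads, and some would change range at GENCODE M21 lengths.

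Promoter windows were examined because many genes of the translation machinery start in a run of pyrimidines, the 5′ terminal oligopyrimidine tract through which mTORC1 controls their translation, and because the E-box CACGTG is bound by MYC, a known driver of ribosome production. RefSeq promoters (GRCm38.p6, 250 bases before to 50 after the start) were matched for 39 of the 51 genes. A C followed by C or T to a length of at least 8, beginning within 5 bases of the start on the coding strand, was found in 6 of them (15.4%, against 5.17% of all genes with a promoter and 5.73% of those tested). These were Eif2b2, Eif2b5, Eif2s3x, Eif2s3y, Eif3f and Eif3l. All 6 had log2 fold changes below 0, with a median of -0.069, as did 23 of the 32 without such a run, with a median of -0.026. At a length of at least 5 the count was 10 (25.6%, against 21.2% and 23.6%). The 4 autosomal genes with a long run are shown around the start with the run in capitals, and their groups did not overlap (lower, as in 8.71% of all genes tested), while those of Eif2s3x and Eif2s3y did. They lie at chr12:85219466-85219495, chr16:20498802-20498831, chr7:108934400-108934429 and chr15:79075208-79075237, all on the plus strand.
Eif2b2: tttcaccgagcggaagttgaCCTCTCTCgg
Eif2b5: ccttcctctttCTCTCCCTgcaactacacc
Eif3f: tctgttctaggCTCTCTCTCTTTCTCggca
Eif3l: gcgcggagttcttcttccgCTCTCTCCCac
In Eif2b5 the bases before the capitals are also C or T, so that its capitals mark only the stretch from within reach of the start and not the whole run. Eif3f measured 108.9, 108.4 and 108.5 RPKM in the β-gal libraries and 105, 107.8 and 95.4 RPKM in the Aloxe3 libraries. Its groups were thus apart by a narrow margin only (log2 fold change -0.081, adjusted p = 0.531, limma, SE 0.049).

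The E-box CACGTG, which reads the same on both strands, stood in the promoter of 10 of the 39 genes (25.6%, against 8.09% of all genes with a promoter and 12.0% of those tested). The 9 tested genes with it had a median level of 138.5 RPKM and the 29 without it 26.9 RPKM, or 73.6 and 22.7 RPKM at GENCODE M21 lengths. Their median log2 fold changes were -0.025 and -0.0405. A match of letters is a description of these windows and not a site of binding. The windows of Eif3k and Eif4h (minus strand, chr7:28981915-28981944 and chr5:134639488-134639517) and Eif4g1 (plus strand, chr16:20672661-20672690) are shown as examples from genes described here, with the E-box in capitals.
Eif3k: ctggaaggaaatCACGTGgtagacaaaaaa
Eif4h: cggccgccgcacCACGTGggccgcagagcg
Eif4g1: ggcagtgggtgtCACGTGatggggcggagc

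Genes that act beside the initiation factors did not pass the test either. Of 39 such genes in 7 lists, 38 were tested (Rps6kb2 was listed at 0). Of these, 0 had an adjusted p under 0.05 with limma (against 0.394% of all genes tested). The count was also 0 with voom (against 173 of 12692 genes). In 23 the log2 fold change was below 0 (60.5%, against 47.6% of all genes tested). At an unadjusted p under 0.05 were 1 with lower (2.63%, against 5.42% of all genes tested) and 2 with higher values (5.26%, against 7.31%), of which Eif2ak2, the double-stranded RNA kinase of eIF2 alpha, averaged 13.2 and 14.3 RPKM with a log2 fold change of 0.11 (adjusted p = 0.333, SE 0.039). Ppp1r15a encodes the stress-induced subunit that directs a phosphatase to eIF2 alpha, and it measured 31.3, 32.9 and 28.1 RPKM in β-gal and 32.6, 39.6 and 37.8 RPKM in Aloxe3 libraries. β-gal replicate 2 overlapped Aloxe3 replicate 7, and the log2 fold change was 0.24 (adjusted p = 0.2996, SE 0.081, and an adjusted p of 0.0947 with voom), the highest of the partner genes. All 7 elongation factor genes had log2 fold changes below 0 (against 47.6% of all genes tested) with a median of -0.064. Eef1b2, an exchange factor of elongation, measured 184, 188 and 183 against 179, 174 and 162 RPKM with no overlap (log2 fold change -0.11, adjusted p = 0.358, SE 0.044, and -0.070 without Aloxe3 replicate 9). Of the partner genes tested, 2 did not overlap with lower values (5.26%, against 8.71% of all genes tested). With higher values 1 did not (2.63%, against 11.2%).

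The other partner lists held genes on both sides of 0. The eIF2 alpha kinases and phosphatase subunits had 3 of 6 genes below 0, the poly(A) binding and eIF4F partners 4 of 8, the mTORC1 genes 4 of 7, the other initiation and reinitiation factors 2 of 5, the hypusine synthesis genes 1 of 2 and the termination factors 2 of 3. Besides Ppp1r15a and Eef1b2, the gene with the smallest p of a list had a log2 fold change of 0.067 for Rheb, the GTPase that activates mTORC1 (adjusted p = 0.533), and -0.097 for Dohh, the enzyme that completes hypusine on eIF5A (adjusted p = 0.490, from -0.14 to -0.063 as each library was left out). It was -0.066 for Dhx29, a helicase of scanning (adjusted p = 0.540), -0.054 for Paip2, which withholds the poly(A) binding protein (adjusted p = 0.665, from -0.096 to -0.016 as each library was left out), and -0.020 for Etf1, the release factor (adjusted p = 0.860).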

How the data were processed

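RNA from 6 libraries of primary murine hepatocytes was poly(A)-selected and sequenced as single reads of 50 bases. The authors aligned reads with STAR (2.0.4b) to GRCm38.p2 with Ensembl release 76 and counted uniquely aligned, unambiguous reads with featureCounts (1.4.5), and RPKM values per gene were deposited. Strand use in counting is not given in the sources used here, so reads of a gene and of an antisense gene may not be separated. Reads per library were recovered from the steps of the low RPKM values, and replicate pairs differed by more than sampling noise.

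Names were taken from GENCODE M21, which matched 40340 of 41388 gene IDs. Genes averaging at least 0.5 RPKM were fitted as log2(RPKM + 1) in limma (3.58.1, R 4.3.3) with a trended prior, two-sided, with Benjamini-Hochberg adjustment over all 12693 genes tested and a threshold of 0.05. RPKM values carry no count model, so a fit across genes replaced unpaired tests per gene. A two-sided exact permutation test of 3 against 3 libraries cannot go below p = 0.1. The labels do not say that replicates came from separate cultures, so p-values measure the spread between libraries, which may be technical. The scripts were tested on simulated data.

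The members and lists were chosen with earlier results of these data known. Genes were named by a rule: in each role group, the 2 tested members with the smallest unadjusted p and the one with the highest mean, the paralog pairs, the eIF4E binding proteins, members not tested, the gene with the smallest p in each partner list, and Aloxe3. Members called only at an unadjusted p or by non-overlap were named after their values were seen, as were cap-binding genes. Alternatives covered the pseudocount, the filter on low values, scaling, the prior, voom on derived reads and leaving out each library. Shared windows were 50-base runs of GENCODE transcripts found in another gene.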

Additional observations from a re-analysis of the deposited data

How the results depend on the processing

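No initiation factor or partner gene reached an adjusted p under 0.05 in any of the 15 alternatives, of which corrections for exon length and for GC content were chosen after seeing the data. The smallest adjusted p of a member was 0.173 (Eif5a) and that of a named partner gene 0.0947 (Ppp1r15a), both with voom. The number of genes changed over all genes tested was 50, and was 7 without a filter, 173 with voom and 6 to 19 as each library was left out. Members with an unadjusted p under 0.05 numbered 9, and 3 when the prior had no trend and 0 to 12 as each library was left out, 12 of them when β-gal replicate 3 was left out and 9 when Aloxe3 replicate 7 was. All 9 kept their sign in every alternative.

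The median log2 fold change of the members ran from -0.054 to -0.021 as each library was left out and was -0.019 with quantile normalization. As each library was left out, the median of the eIF1 family ran from -0.080 to -0.014, of eIF2B from -0.13 to -0.075 and of the eIF4 group from -0.018 to 0.0015. The eIF2 median was 0.055 with a filter at 5 RPKM, which leaves fewer genes, and ran from -0.012 to 0.020 as each library was left out.

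Over the 15 alternatives 17 of the 48 members changed sign at least once. Of the 34 genes named and followed one by one, these did, none with an unadjusted p under 0.05. With quantile normalization the log2 fold change was 0.0018 for Eif1a, 0.0031 for Eif4ebp1, 0.024 for Eif4ebp2, 0.031 for Eif4g1 and 0.013 for Etf1. It was 0.0017 for Eif4ebp2 with the length correction and 0.0031 for Eif4g1 with the GC correction. As each library was left out it ran from -0.054 to 0.016 for Eif1a, from -0.080 to 0.0043 for Eif1ax, from -0.079 to 0.017 for Eif4a1, from -0.052 to 0.018 for Eif4a2, from -0.045 to 0.020 for Eif4ebp2, from -0.073 to 0.028 for Eif4ebp3, from -0.099 to 0.0014 for Eif4h and from -0.033 to 0.0073 for Etf1. The cause was not tested. No paired analysis was possible because the groups share no replicate numbers. Low members such as Eif4ebp3, with 10 to 16 reads, are limited by depth.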
